A study of Mus musculus with 18 samples.

Results

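The genes described here are 10 nodes of the insulin, PI3K, Akt and mTOR signaling route, whose transcripts were read in RNA of the left ventricle on Affymetrix whole-genome mouse arrays. A probe set, the group of short probes that reports one transcript region, was taken when it is annotated to Insr, Irs1, Irs2, Pik3r1, Pik3ca, Akt1, Mtor, Rictor, Foxo1 or Foxo3 alone. This gave 34 of the 34945 probe sets annotated to a single gene, and 10 of 18193 genes. The number per gene was 3 for Insr, 1 each for Irs1 and Irs2, 4 for Pik3r1, 6 for Pik3ca, 4 for Akt1, 3 for Mtor, 5 for Rictor, 4 for Foxo1 and 3 for Foxo3. One further probe set, which lists Foxo3 beside another gene, was left out.

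All hearts came from female wild-type C57Bl/6 mice of 3 to 4 months, and each of the 6 groups has 3 arrays. The 7EX and 21EX groups ran voluntarily on wheels for 7 and 21 days. The pregnant groups are MP, mid-pregnancy at day 11, and LP, late pregnancy at days 18 to 19. The 0PP group was taken within 12 hours of giving birth, and NP/Sed, the sedentary virgins in diestrus, is the reference of both kinds of cardiac growth. Each array is a pool of equal RNA from 2 to 3 hearts, so every SD below is a spread between pools. Values are log2 signals, differences are the first-named group minus the second, and a probe set passed where the limma p, adjusted over 45037 probe sets, was under 0.05.

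Insulin binds the receptor tyrosine kinase encoded by Insr, which phosphorylates the adaptors Irs1 and Irs2. These dock PI3K, built from a regulatory subunit (p85alpha and shorter forms, Pik3r1) and a catalytic subunit (p110alpha, Pik3ca), whose lipid product brings Akt1 to the membrane. Mtor is the kinase of both mTOR complexes, and Rictor belongs to the one that phosphorylates Akt. Akt in turn phosphorylates Foxo1 and Foxo3 and keeps these transcription factors out of the nucleus. In the heart the route is known for its part in physiological growth. The arrays measured transcript levels, and neither phosphorylation nor protein.

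The calls lay at 4 of the 10 genes. Foxo3 and Pik3r1 were highest in late pregnancy: Foxo3 reached 1.38-fold and Pik3r1 1.56-fold of NP/Sed, and 1.75-fold and 1.83-fold of 7EX. Irs2 was highest in mid-pregnancy, at 1.95-fold of 21EX, and a single weakly hybridizing Rictor probe set was lower after 21 days of running. Insr, Irs1, Pik3ca, Akt1, Mtor and Foxo1 had no probe set past the threshold in any of 11 comparisons. Their lowest adjusted p-values were 0.0805, 0.0879, 0.101, 0.150, 0.306 and 0.508 in that order.

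By comparison, 0 of 34 member probe sets passed in 7EX against NP/Sed, where 0.659% of all probe sets did. The count was 1, lower, in 21EX against NP/Sed beside 2.75% (1.37% lower), 0 in MP beside 1.16%, 3, all higher, in LP beside 1.67% (1.19% higher) and 0 in 0PP beside 1.98%. In 0PP against LP 1 passed, lower, beside 0.884% (0.318% lower). In LP against MP 0 passed beside 1.4%, in 21EX against 7EX 0 beside 0.00222%, and in MP against 21EX 1 passed, higher, beside 0.615% (0.295% higher). Arrays of 2 groups that did not overlap were far more common than calls. Of all probe sets they made up 17.6% in 7EX, 22.5% in 21EX, 17.4% in MP, 16.4% in LP and 21.1% in 0PP, each against NP/Sed. The share was 15.6% in 0PP against LP, 19.7% in LP against MP and 13.4% in 21EX against 7EX. It was 20.4% in MP against 21EX, 18.2% in LP against 7EX and 19.6% in LP against 21EX. These shares stand behind each non-overlap of 2 groups in these comparisons named below. No share over all probe sets was taken for a group lying apart from several others at once, or for pairs outside these comparisons. Behind the counts of 0, the numbers of members with an unadjusted limma p under 0.05 were 8 of 34 in 7EX (13.3% of all probe sets), 5 in MP (14.2%) and 4 in 0PP (17.8%), each against NP/Sed, 10 in LP against MP (13.7%) and 4 in 21EX against 7EX (6.39%). Cyber-T, the method of the study, was written anew and used here with an adjusted p under 0.05 and no minimum change. The study instead asked for a posterior probability together with a minimum change, so these counts are not calls by its criteria. Against NP/Sed this version called 2 of the 34 in 7EX (2.8% of all probe sets), 1 in MP (3.43%) and 0 in 0PP (3.01%). It called 5 in LP against MP (2.74%) and 0 in 21EX against 7EX (0.0244%). The shares over all probe sets rest on single arrays too: against NP/Sed the number called fell to 33 in 7EX without array 2 of NP/Sed (297 with all arrays), to 60 in 21EX without array 2 of 21EX (1238), to 71 in MP without array 3 of MP (524), to 290 in LP without array 3 of NP/Sed (754) and to 133 in 0PP without array 2 of 0PP (892).

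**Figure D1:**
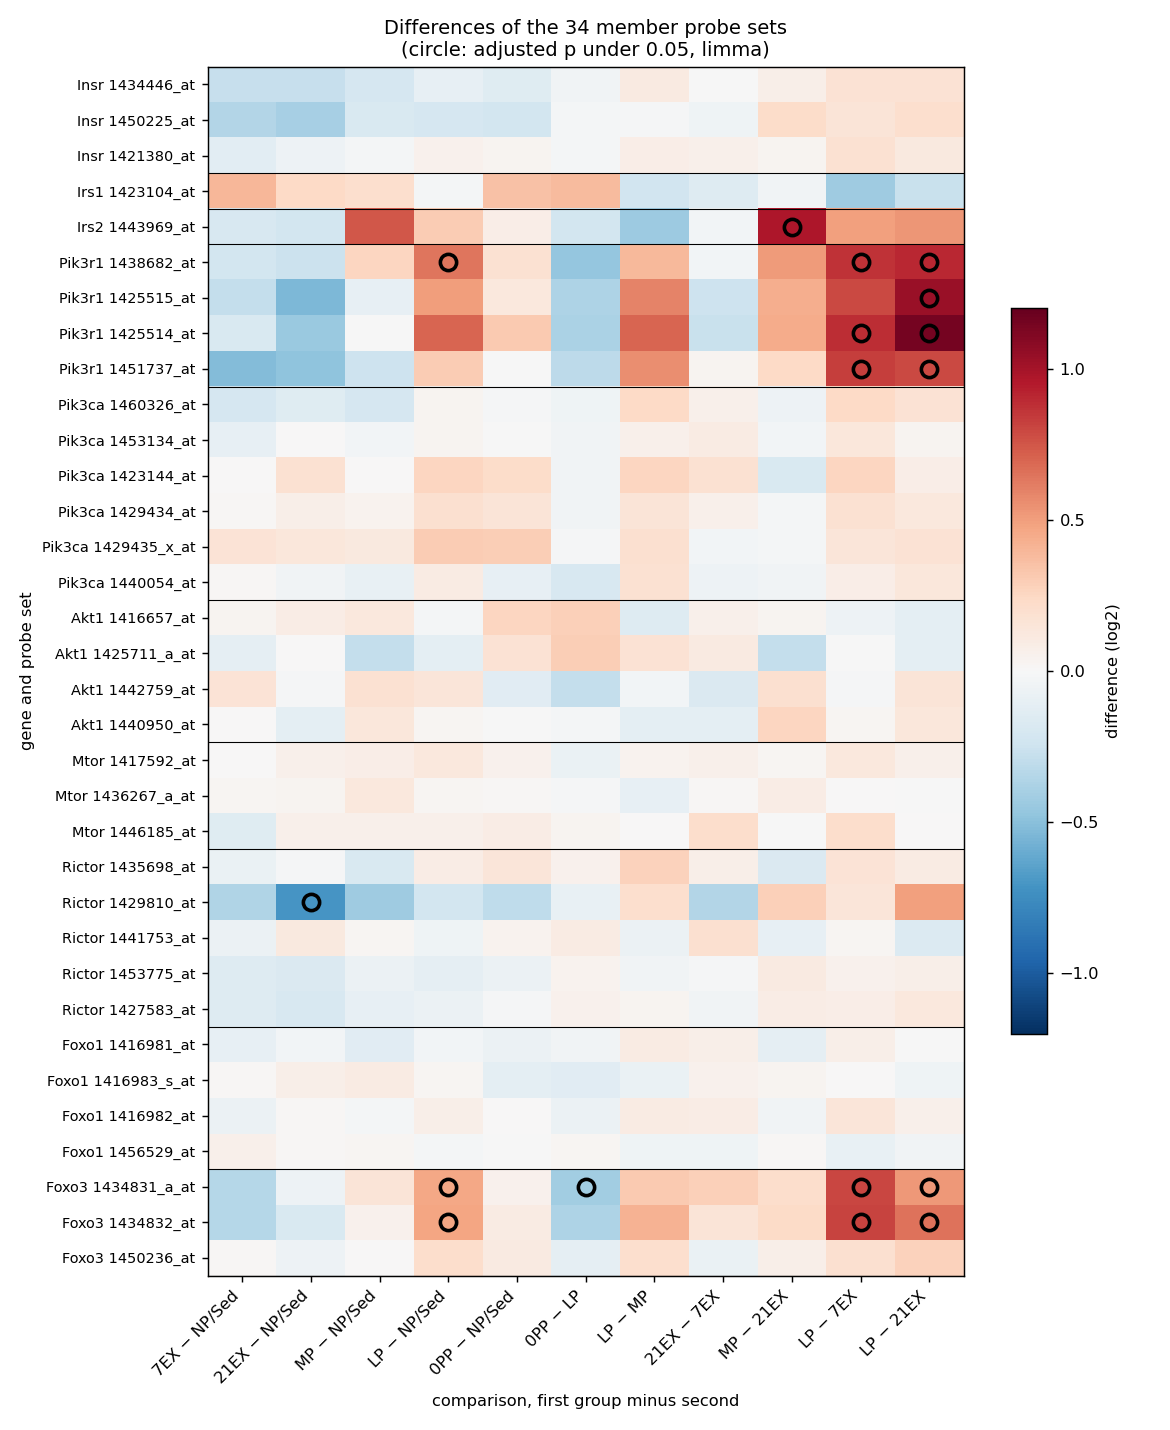
Differences (log2, first group minus second) of the 34 member probe sets (rows, by gene) in 11 comparisons (columns), with a circle where the adjusted limma p is under 0.05. The circles lie in the Foxo3 and Pik3r1 rows, mostly where LP is compared, with 1 each for Irs2 (MP minus 21EX) and Rictor (21EX minus NP/Sed).

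LP was also set against 7EX and 21EX, both added after the values had been seen, so that their p-values describe a contrast partly chosen for its size. In LP against 7EX 5 member probe sets passed and in LP against 21EX 6 did, all of Foxo3 and Pik3r1 and all higher in LP, beside 2.99% and 3.01% of all probe sets (1.56% and 1.31% higher). The median difference over the 34 was 0.15 and 0.13 in these comparisons, against -0.01 over all probe sets in both. In LP against NP/Sed the member median was 0.06, against -0.01 over all probe sets. The 34 probe sets read 10 genes, so they are not independent values.

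The RNA was that of heart muscle on every array: the mean of 6 cardiomyocyte markers, which do not tell ventricle from atrium, lay between 14.05 and 14.13. Array medians lay between 4.94 and 5.03. The 3' minus 5' signal of beta-actin, a measure of RNA integrity, averaged 1.08 in 7EX, 1.19 in 21EX, 1.33 in MP, 1.24 in LP and 1.30 in 0PP, against 1.21 in NP/Sed (range 1.11 to 1.36). It lay between 1.05 and 1.09 in 7EX, 1.17 and 1.22 in 21EX and 1.32 and 1.35 in MP, without overlap. A model that holds this value therefore cannot fully separate it from group, and a call that does not pass there has no tested cause. The mean of 5 fibroblast markers was lowest in LP (9.43 to 9.54), against 9.70 to 9.90 in 7EX, 9.77 to 9.81 in 21EX and 9.48 to 9.68 in NP/Sed. As in any tissue RNA, a lower value can stand for fewer cells of a type or for less RNA per cell, and these cannot be told apart.

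RefSeq promoters (GRCm38.p6) were found for 9 of the 10 genes, all but Insr. Shown are the 250 bases before the start for the pair that was highest in late pregnancy, Foxo3 and Pik3r1, and for the pair of receptor adaptors, Irs2 and Irs1, which were highest in different groups. Capitals mark the GC box GGGCGG, the E-box CACGTG, the letters CAAAACA of the insulin response element and the FoxO motif GTAAACA, each on either strand. All lie on the minus strand, at chr10:42276696-42276945 for Foxo3, chr13:101768218-101768467 for Pik3r1, chr8:11008930-11009179 for Irs2 and chr1:82291440-82291689 for Irs1.
Foxo3: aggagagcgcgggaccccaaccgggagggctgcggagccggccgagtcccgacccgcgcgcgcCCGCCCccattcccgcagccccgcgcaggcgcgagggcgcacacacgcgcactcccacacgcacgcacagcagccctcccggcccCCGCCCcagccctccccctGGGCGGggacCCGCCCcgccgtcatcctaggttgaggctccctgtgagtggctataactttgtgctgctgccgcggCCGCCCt
Pik3r1: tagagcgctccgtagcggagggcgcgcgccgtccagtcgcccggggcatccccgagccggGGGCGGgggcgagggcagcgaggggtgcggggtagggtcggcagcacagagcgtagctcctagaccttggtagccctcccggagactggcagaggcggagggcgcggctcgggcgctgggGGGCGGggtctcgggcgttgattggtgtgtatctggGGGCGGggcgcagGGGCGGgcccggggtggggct
Irs2: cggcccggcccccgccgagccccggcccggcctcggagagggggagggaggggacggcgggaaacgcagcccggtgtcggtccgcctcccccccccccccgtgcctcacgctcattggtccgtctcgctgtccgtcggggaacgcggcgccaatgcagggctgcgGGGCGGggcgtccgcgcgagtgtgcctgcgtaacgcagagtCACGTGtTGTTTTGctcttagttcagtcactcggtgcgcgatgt
Irs1: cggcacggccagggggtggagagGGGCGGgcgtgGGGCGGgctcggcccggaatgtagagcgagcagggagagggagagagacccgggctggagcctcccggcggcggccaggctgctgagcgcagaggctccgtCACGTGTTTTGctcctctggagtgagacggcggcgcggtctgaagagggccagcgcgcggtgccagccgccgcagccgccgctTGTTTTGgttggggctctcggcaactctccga

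The Foxo3 and Pik3r1 windows were alike in base composition, each with 76.4% G and C beside a median of 52.4% over all promoters, and held 5 and 4 GC boxes. This was not particular to the pair. Rictor had 81.2% and 1 of the Akt1 starts 78.4%, each with 4 GC boxes, and Irs2 and Irs1 had 72.8% and 72.4%. Pik3ca, Foxo1 and Mtor had 61.6%, 56% and 54.4%. A GC box occurred in 32.7% of the 32851 promoter windows of this length. Neither the Foxo3 nor the Pik3r1 window shown held the E-box, the insulin response letters or the FoxO motif. A second Pik3r1 start, at chr13:101692631-101692880, has 42.4% G and C and none of the 4 motifs. The Irs2 window holds the E-box at base 207 and the reverse complement of the insulin response letters at base 214, counted from the 5' end. The Irs1 window has the E-box at base 136 and that reverse complement at bases 140 and 219, the first of these overlapping the E-box by 2 letters. The E-box occurred in 6.02% and the insulin response letters in 5.56% of all windows, and both starting within 20 bases of each other in 15 of them, or 0.0457%. The FoxO motif occurred in 3.17%, among the members at 1 of the 2 Akt1 starts. These matches describe letters, not binding, and were not set against the expression values.

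At the receptor, Insr was highest in NP/Sed at its brightest probe set (1434446_at). It read 9.86, 9.94 and 10.01 in 7EX, 10.11, 9.88 and 9.82 in 21EX, 10.14, 9.96 and 9.93 in MP, 10.07, 10.12 and 10.15 in LP and 10.02, 10.13 and 10.06 in 0PP, against 10.16, 10.33 and 10.15 in NP/Sed. The arrays of all 5 other groups lay below those of NP/Sed, with the highest of LP almost touching the lowest of NP/Sed. The difference was -0.27 ± 0.09 in 7EX (SE, adjusted p = 0.155) and -0.28 ± 0.09 in 21EX (adjusted p = 0.0835), so neither passed. Without array 1 of 21EX the 21EX difference was -0.37 and passed (adjusted p = 0.0421). The second Insr probe set (1450225_at, mean 5.10) gave -0.35 ± 0.12 and -0.40 ± 0.12, with overlapping arrays in both comparisons, and the remaining one (1421380_at, mean 4.78) had group means within 0.18 of each other.

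Of the adaptors, Irs1 and Irs2 are measured by 1 probe set each. Irs1 (1423104_at) read 10.50, 10.46 and 10.39 in 7EX, 10.29, 10.43 and 10.17 in 21EX, 10.29, 10.03 and 10.44 in MP, 10.20, 9.96 and 9.91 in LP and 10.22, 10.50 and 10.50 in 0PP, against 10.35, 9.93 and 9.87 in NP/Sed. Short running gave the highest mean and late pregnancy the lowest, and the first NP/Sed array stood 0.42 above the second. The difference was 0.40 ± 0.13 in 7EX against NP/Sed (adjusted p = 0.157), 0.38 ± 0.13 in 0PP against LP (adjusted p = 0.232) and -0.43 ± 0.13 in LP against 7EX (adjusted p = 0.0879). None passed. Without array 1 of NP/Sed, which the last comparison does not contain but which enters the shared spread, the adjusted p of LP against 7EX was 0.0379, and with the beta-actin 3' minus 5' value in the model that difference fell to -0.28 (adjusted p = 0.662).

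Irs2 (1443969_at) read 6.64, 6.65 and 6.68 in 7EX, 6.45, 6.60 and 6.82 in 21EX, 7.52, 7.17 and 8.08 in MP, 6.95, 6.88 and 7.63 in LP and 6.90, 7.00 and 6.88 in 0PP, against 7.00, 6.77 and 6.76 in NP/Sed. All 3 MP arrays lay above every array of both running groups, of 0PP and of NP/Sed, and the highest array of LP reached into the MP range. The spread was wide in pregnancy, with an SD of 0.46 in MP and 0.41 in LP beside 0.02 in 7EX and 0.13 in NP/Sed. MP exceeded 21EX by 0.97 ± 0.19 (adjusted p = 0.0215), past the 75% change that the study asked for (which, with the adjusted p, 0.129% of all probe sets met), and NP/Sed by 0.74 ± 0.19, which did not pass (adjusted p = 0.0600). The first call ended without array 1 or 2 of 21EX (0.88 and 0.95, adjusted p = 0.122 and 0.0710) and without array 1 or 3 of MP (1.0 and 0.72, adjusted p = 0.0690 and 0.130), in a fit of MP and 21EX alone (adjusted p = 0.120) and when the beta-actin 3' minus 5' value entered the model (0.87, adjusted p = 0.273). Against NP/Sed the difference passed without array 2 of MP (0.95, adjusted p = 0.0260) and without array 3 of LP (adjusted p = 0.0220), and fell to 0.50 without array 3 of MP.

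Markers of other cells moved with MP. The mean of the 4 adipocyte markers measured (of 6) was 4.77 to 5.48 in MP, against 4.40 to 4.46 in 21EX and 4.14 to 4.51 in NP/Sed. In MP 1 of the 4 passed as higher against NP/Sed, and 1 against 21EX. Among the 4, Cidec and Lep stayed below 4 on every array, and Adipoq, the adipokine adiponectin, ranged between 3.27 and 7.42. The mean of 5 macrophage markers was 7.92 to 8.07 in MP, against 7.73 to 7.94 in 21EX and 7.39 to 7.59 in NP/Sed. Of the 5, 4 passed as higher against NP/Sed and 1 against 21EX. The mean of the 2 red cell markers measured (of 4) was 5.92 to 6.33 in MP, against 5.36 to 5.46 in 21EX and 5.27 to 5.40 in NP/Sed. Of the 2, 1 passed as higher against both. Hba-a1 stayed between 3.36 and 3.73 on every array and Alas2 ranged between 6.52 and 8.94, so this mean mainly follows Alas2. The part of these cells in the Irs2 signal was not tested.

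**Figure D2:**
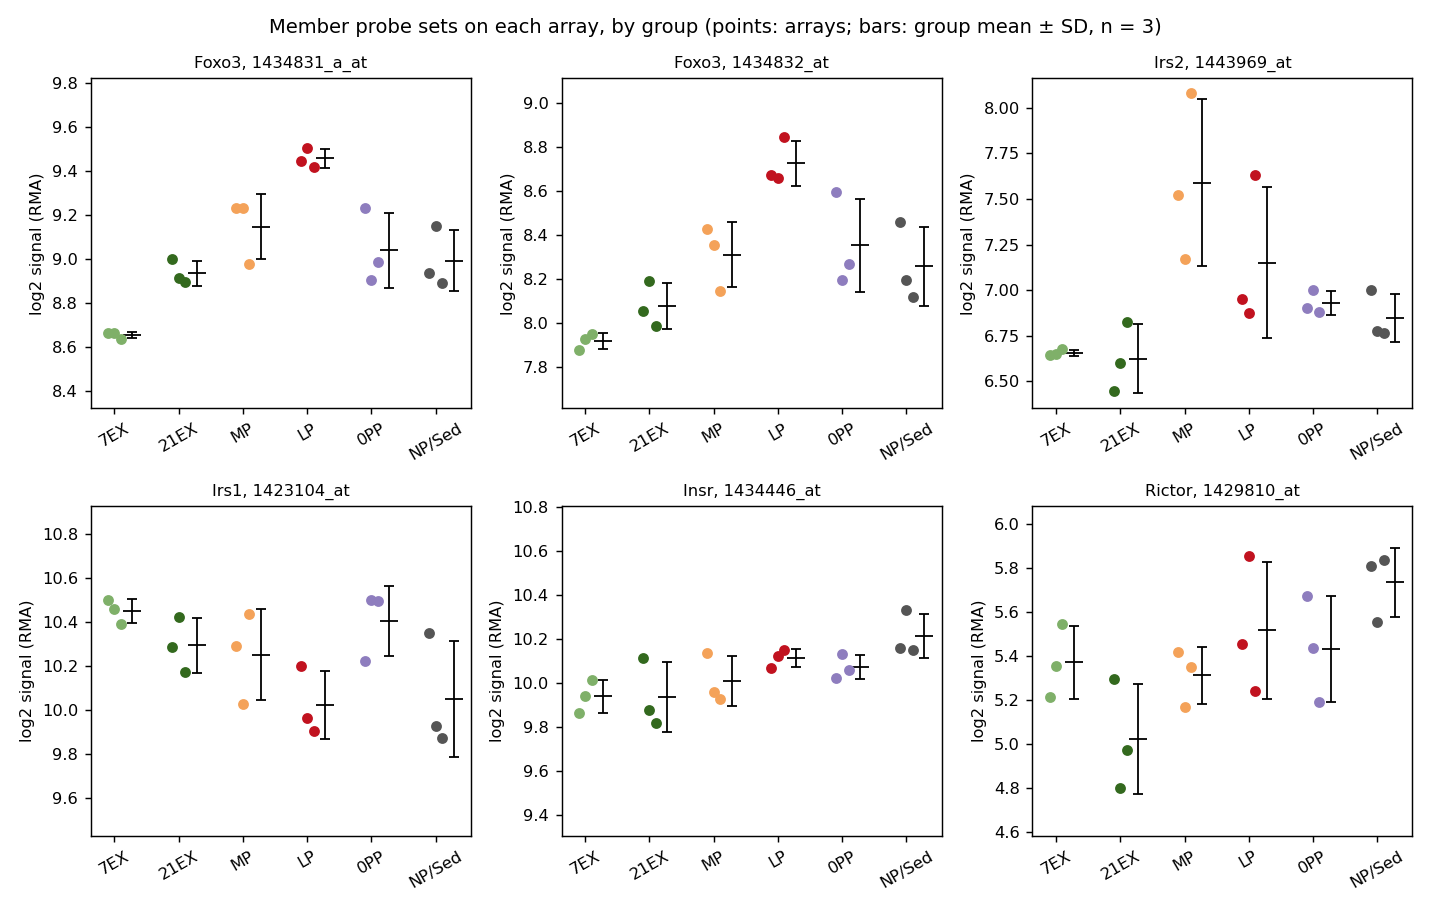
Log2 signal (vertical axis) of 6 member probe sets on each array (points) by group (horizontal axis), with the group mean and SD (bars, n = 3). Both Foxo3 probe sets have their highest 3 arrays in LP and their lowest in 7EX, Irs2 has its highest mean in MP with a wide spread, and Rictor 1429810_at is lowest in 21EX.

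The regulatory subunit of PI3K, Pik3r1, was highest in late pregnancy at all 4 of its probe sets. The brightest (1438682_at) read 9.72, 9.75 and 9.89 in 7EX, 10.002, 9.52 and 9.74 in 21EX, 10.47, 10.19 and 10.14 in MP, 10.54, 10.73 and 10.70 in LP and 10.47, 10.08 and 10.04 in 0PP, against 10.35, 10.04 and 9.66 in NP/Sed. The 3 LP arrays lay above all 15 others. LP exceeded NP/Sed by 0.64 ± 0.16 (adjusted p = 0.0399). Its excess was 0.87 ± 0.16 over 7EX (adjusted p = 0.00276) and 0.90 ± 0.16 over 21EX (adjusted p = 0.00261). 0PP was 0.46 ± 0.16 below LP with no overlap of arrays, a difference that did not pass (adjusted p = 0.242).

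The NP/Sed arrays spread widely at Pik3r1, with an SD of 0.35, and the call against NP/Sed was sensitive to single arrays. It ended without array 2 or 3 of NP/Sed (0.66 and 0.47, adjusted p = 0.101 and 0.226) and without any of the 3 LP arrays (0.61 to 0.70, adjusted p = 0.0804 for array 1, 0.0959 for array 2 and 0.124 for array 3). It also ended without array 2 of 7EX (adjusted p = 0.0538) or array 3 of 21EX (adjusted p = 0.0540), which enter only through the shared spread, and in a fit of LP and NP/Sed alone (adjusted p = 0.133). With the 4 probe sets averaged, Pik3r1 in LP minus NP/Sed was 0.54 and did not pass (adjusted p = 0.150). The difference from 21EX passed without any 1 of the 18 arrays. That from 7EX did so as well. With the beta-actin 3' minus 5' value in the model the difference from 7EX rose to 0.97 and did not pass (adjusted p = 0.0520). That model cannot fully separate the value from group.

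The other Pik3r1 probe sets moved with the brightest, with pairwise Pearson r of 0.80 to 0.93 over the 18 arrays, as readings of 1 gene in the same RNA. At 1425514_at the values were 8.30, 8.38 and 8.53 in LP, 7.46, 7.68 and 7.42 in 7EX and 7.38, 6.94 and 7.44 in 21EX. The 3 LP arrays again lay above all arrays of running hearts. The excess over 21EX was 1.15 ± 0.21 (adjusted p = 0.00424), the largest of the 34 member probe sets in any comparison made, and that over 7EX was 0.88 ± 0.21 (adjusted p = 0.0245). At 1425515_at the excess was 1.03 ± 0.23 over 21EX (adjusted p = 0.0182) and 0.79 ± 0.23 over 7EX, which did not pass (adjusted p = 0.0867). At 1451737_at the excess was 0.80 ± 0.21 over 21EX (adjusted p = 0.0478) and 0.83 ± 0.21 over 7EX (adjusted p = 0.0378). Against NP/Sed these 3 probe sets did not pass, with 0.70 ± 0.21 at 1425514_at (adjusted p = 0.113).

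Calls at these dimmer probe sets depended on single arrays. The excess over 7EX at 1425514_at ended without array 1 or 3 of 7EX (adjusted p = 0.0803 and 0.110) or array 2 or 3 of LP (adjusted p = 0.0623 and 0.0997), and that over 21EX held without each array. With the beta-actin 3' minus 5' value in the model the excess over 7EX did not pass at 1425514_at (0.85, adjusted p = 0.293) or 1451737_at (1.08, adjusted p = 0.115). At 1425515_at the excess over 21EX ended without array 2 or 3 of 21EX (adjusted p = 0.0737 and 0.0965) or array 3 of LP (adjusted p = 0.101), and that over 7EX passed without array 1 of NP/Sed (adjusted p = 0.0169). At 1451737_at both calls were near the threshold. Against 7EX it was lost without any array of 7EX (adjusted p = 0.150, 0.0728 and 0.0966 for arrays 1, 2 and 3), without array 3 of 21EX (0.0509) or array 3 of LP (0.205). Against 21EX it was lost without any array of 7EX (0.0530, 0.0603 and 0.0601) or of 21EX (0.0967, 0.121 and 0.144), array 2 or 3 of LP (0.0660 and 0.231), array 3 of NP/Sed (0.0534), array 2 or 3 of MP (0.0502 and 0.0564) or array 2 of 0PP (0.0591).

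**Figure D3:**
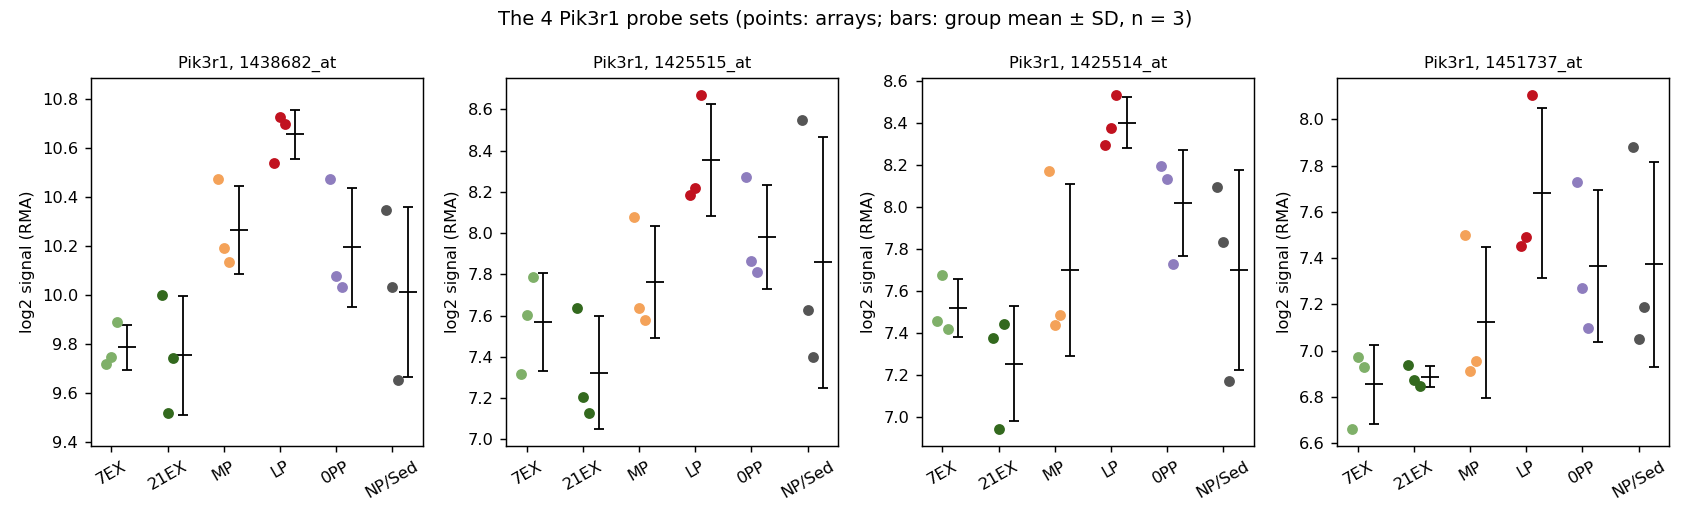
Log2 signal (vertical axis) of the 4 Pik3r1 probe sets on each array (points) by group (horizontal axis), with the group mean and SD (bars, n = 3). LP has the highest mean at each probe set and the running groups the lowest, and the first NP/Sed array is the highest of its group at each.

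The catalytic subunit, Pik3ca, had its highest mean in LP at all 6 probe sets, but by small amounts. The brightest (1460326_at) read 9.11, 9.28 and 9.19 in LP, 8.92, 8.95 and 9.004 in 7EX and 8.92, 9.03 and 8.92 in MP, against 9.22, 9.19 and 9.05 in NP/Sed. LP and NP/Sed overlapped, and the difference was 0.04 with a 95% interval of -0.14 to 0.21. LP exceeded 7EX by 0.24 ± 0.08 (adjusted p = 0.173) and MP by 0.23 ± 0.08 (adjusted p = 0.188). Over the 6 probe sets and 11 comparisons the differences lay between -0.20 and 0.31, the highest at 1429435_x_at in LP against NP/Sed (adjusted p = 0.128). The smallest adjusted p-values were at 1423144_at, where LP lay above 7EX, MP and NP/Sed by 0.26 ± 0.08 in each case with no overlap of arrays, at adjusted p-values of 0.101 for 7EX, 0.122 for MP and 0.115 for NP/Sed.

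Akt1, the kinase next in the route, was highest just after birth at its brightest probe set (1416657_at). It read 9.68, 9.43 and 9.47 in 0PP and 9.29, 9.25 and 9.18 in LP, against 9.47, 9.10 and 9.22 in NP/Sed. 0PP lay above LP on all 3 arrays and overlapped NP/Sed. Neither difference passed, at 0.29 ± 0.09 against LP (adjusted p = 0.223) and 0.26 ± 0.09 against NP/Sed (adjusted p = 0.150). The second probe set (1425711_a_at) gave 0.29 ± 0.15 in 0PP against LP, and the other 2 did not follow the brightest, with r of -0.32 and 0.09 over the 18 arrays. Across its 4 probe sets and 11 comparisons Akt1 differences lay between -0.29 and 0.29.

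Mtor had no call, and its group means lay close together. At its brightest probe set (1417592_at) they lay between 8.22 and 8.35, with 8.32, 8.36 and 8.38 in LP, against 8.25, 8.32 and 8.10 in NP/Sed. The difference of 0.13 has a 95% interval of -0.02 to 0.28. Over 3 probe sets and 11 comparisons Mtor differences lay between -0.15 and 0.21.

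Rictor gave 1 call, and it came from 1 of its 5 probe sets. At 1429810_at, with a mean of 5.40, the values were 5.22, 5.36 and 5.54 in 7EX, 5.30, 4.80 and 4.97 in 21EX, 5.42, 5.17 and 5.35 in MP, 5.46, 5.86 and 5.24 in LP and 5.67, 5.44 and 5.19 in 0PP, against 5.81, 5.56 and 5.84 in NP/Sed. The 21EX arrays all lay below those of NP/Sed, by -0.71 ± 0.15 or 0.61-fold (adjusted p = 0.0242). The call ended without array 1 or 3 of NP/Sed (adjusted p = 0.0591 and 0.0691) and without array 2 or 3 of 21EX (adjusted p = 0.103 and 0.0726). At the brightest Rictor probe set (1435698_at, mean 6.76) the same difference was -0.01, and the correlation between them over the 18 arrays was 0.15. The other 3 probe sets had means between 3.46 and 4.54 and no call. At 1435698_at LP exceeded MP by 0.27 ± 0.09 without passing (adjusted p = 0.133).

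Of the FoxO factors at the end of the route, Foxo1 had no call. Over 4 probe sets and 11 comparisons its differences lay between -0.14 and 0.15, and none had an unadjusted p under 0.05. At its brightest probe set (1416981_at) LP minus NP/Sed was -0.03, with a 95% interval of -0.26 to 0.19.

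Foxo3 had the smallest F-test p of the members over the 6 groups, adjusted to 9.54e-04 at 1434831_a_at and 0.00275 at 1434832_at. At 1434831_a_at it read 8.66, 8.66 and 8.64 in 7EX, 9.001, 8.92 and 8.90 in 21EX, 9.23, 9.23 and 8.98 in MP, 9.45, 9.51 and 9.42 in LP and 9.23, 8.90 and 8.99 in 0PP, against 8.94, 9.15 and 8.89 in NP/Sed. The LP arrays lay above and the 7EX arrays below all others, and 21EX, 0PP and NP/Sed overlapped between them. LP exceeded NP/Sed by 0.47 ± 0.09 (adjusted p = 0.0137). Its excess was 0.80 ± 0.09 over 7EX (adjusted p = 6.7e-05) and 0.52 ± 0.09 over 21EX (adjusted p = 0.00342). 0PP was below LP, at -0.42 ± 0.09 (adjusted p = 0.0376), and within 0.05 of NP/Sed. The order of group means was 7EX, 21EX, NP/Sed, 0PP, MP and LP. Of its neighbours, 21EX exceeded 7EX by 0.28 ± 0.09 (adjusted p = 0.692) and LP exceeded MP by 0.31 ± 0.09 (adjusted p = 0.112), each with no overlap of arrays but not past the threshold. 7EX lay 0.34 ± 0.09 below NP/Sed, again without passing (adjusted p = 0.101).

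The second Foxo3 probe set (1434832_at) followed the first, with r of 0.90 over the 18 arrays. It read 7.88, 7.93 and 7.95 in 7EX, 8.06, 8.19 and 7.99 in 21EX, 8.43, 8.36 and 8.15 in MP, 8.67, 8.66 and 8.85 in LP and 8.59, 8.19 and 8.27 in 0PP, against 8.46, 8.20 and 8.12 in NP/Sed. LP was again above and 7EX below all other arrays. LP exceeded NP/Sed by 0.47 ± 0.11 (adjusted p = 0.0355). Its excess was 0.81 ± 0.11 over 7EX (adjusted p = 2.54e-04) and 0.65 ± 0.11 over 21EX (adjusted p = 0.00234). It exceeded MP by 0.42 ± 0.11 (adjusted p = 0.0685), and 0PP was 0.37 ± 0.11 below LP (adjusted p = 0.151). The remaining Foxo3 probe set (1450236_at, mean 4.36) read 4.41, 4.41 and 4.74 in LP, against 4.40, 4.37 and 4.16 in NP/Sed, with no call.

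The Foxo3 calls against both running groups passed without any 1 of the 18 arrays and when the beta-actin 3' minus 5' value entered the model. Against NP/Sed the call at 1434831_a_at ended only without array 3 of NP/Sed among the 18 (0.41, adjusted p = 0.0838). At 1434832_at it ended without array 2 or 3 of NP/Sed (adjusted p = 0.123 and 0.182) and array 1 or 3 of LP (adjusted p = 0.0839 and 0.143), and after repeated quantile normalization (0.43, adjusted p = 0.0561). With LP and NP/Sed fitted alone neither passed (adjusted p = 0.0825 and 0.125). The call of 0PP against LP ended without array 1, 2 or 3 of LP (adjusted p = 0.0860, 0.160 and 0.0813), array 2 or 3 of 0PP (0.216 and 0.128), array 2 or 3 of 7EX (0.0549 and 0.0508) and array 2 or 3 of 21EX (0.0512 and 0.0513). The excess over MP at 1434832_at passed without array 1 of NP/Sed (adjusted p = 0.0442) or of 0PP (adjusted p = 0.0417). As given above, the mean of the fibroblast markers was lowest in LP, and 3 of 5 passed as lower in LP against 7EX and against 21EX. In LP against NP/Sed 0 of the 5 passed, with a median difference of 0.01. In LP against MP 2 passed as lower, while the median difference was 0.10. The mean of 5 endothelial markers was 8.49 to 8.64 in LP, against 8.61 to 8.79 in 7EX, 8.76 to 8.86 in 21EX and 8.41 to 8.75 in NP/Sed, with 1 marker passing as lower against each running group. The 2 red cell markers, again mainly Alas2, averaged 4.96 to 5.27 in LP, the lowest of the groups, against 5.27 to 5.40 in NP/Sed. The mean of 5 macrophage markers was 7.76 to 8.03 in LP, against 7.39 to 7.59 in NP/Sed. The part of these cells in the Foxo3 and Pik3r1 values was not tested.

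**Figure D4:**
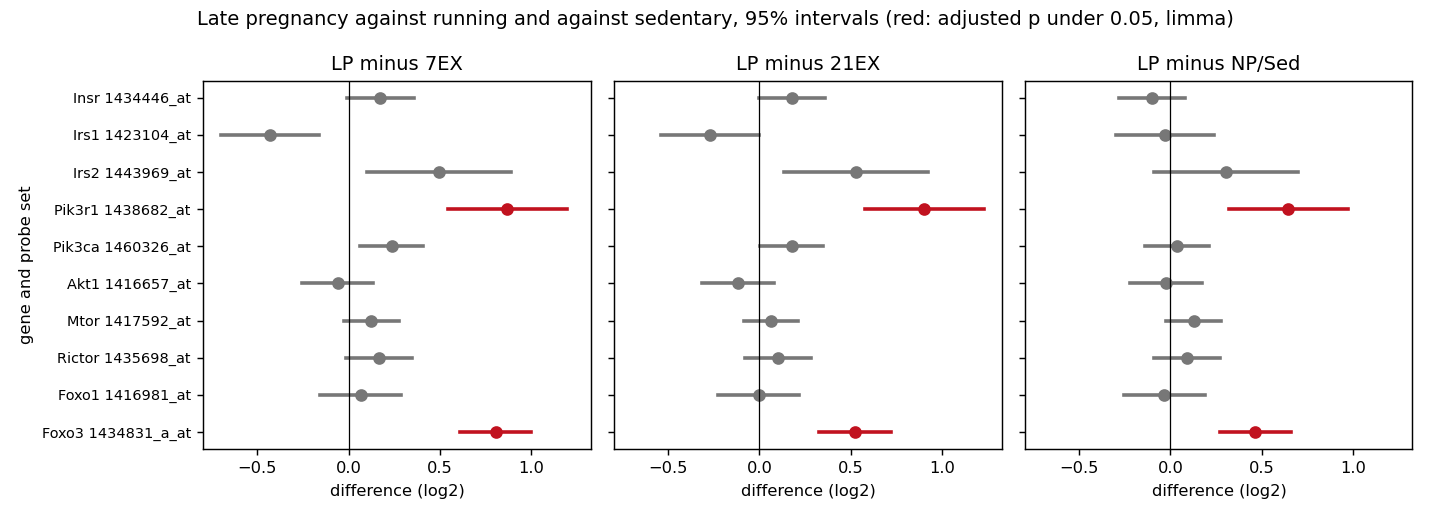
Difference (log2, horizontal axis) of LP minus 7EX, 21EX and NP/Sed at the brightest probe set of each of the 10 genes (vertical axis), with 95% intervals (lines) and red where the adjusted limma p is under 0.05. Pik3r1 and Foxo3 are red in all 3 panels, and the intervals of Akt1, Mtor and Foxo1 include 0 in each.

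The patterns most like those of the 3 members with the smallest F-test p were searched among single-gene probe sets with a mean of at least 6. Nearest to Foxo3 (1434831_a_at) were Pim3, a serine/threonine kinase, with a Pearson r of 0.91 over the 18 arrays, Ppip5k2, an inositol pyrophosphate kinase, with 0.89, and Snrk, an AMPK-related kinase, with 0.89. Nearest to Pik3r1 (1438682_at) were 2 probe sets of Timp3, an inhibitor of metalloproteinases, with 0.92 and 0.90, and again Snrk with 0.90. Nearest to Irs2 were Csrnp1 with 0.89, Ell2, a transcription elongation factor, with 0.88 and Tinagl1 with 0.87. None of these was another member. The arrays share their 6 groups, so these correlations describe likeness across groups as much as between pools.

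Around the members, 83 of 89 other genes of the route had a single-gene probe set, and a gene counted where any of its probe sets passed. Against NP/Sed 0 were higher and 1 lower in 7EX, 1 and 3 in 21EX, 2 and 4 in MP, 6 and 0 in LP, and 1 and 2 in 0PP. Over all 18193 genes the share called in either direction was 1.26% in 7EX, 5.16% in 21EX, 2.11% in MP, 2.97% in LP and 3.86% in 0PP. In 0PP against LP 0 were higher and 7 lower (1.64% of all genes called), in LP against MP 11 and 2 (2.57%), in 21EX against 7EX 0 and 0 (0.0055%) and in MP against 21EX 1 and 1 (1.1%). In LP against 7EX 11 were higher and 1 lower (5.02%), and in LP against 21EX 9 and 3 (5.22%).

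Most of these calls fell among 20 measured genes that are FoxO factors or known FoxO targets. This list was chosen with earlier results of these data known, so its counts do not test whether FoxO targets respond. In LP against NP/Sed 4 of the 20 were higher and 0 lower, in LP against MP 8 and 0, and in 0PP against LP 0 higher and 6 lower. The share of all genes called was 2.2% higher in LP against NP/Sed, 1.53% higher in LP against MP and 0.588% lower in 0PP against LP. The median difference over the 20, at each gene's brightest probe set, was 0.16 in LP against NP/Sed, 0.23 in LP against MP and -0.20 in 0PP against LP, beside -0.01, -0.02 and -0.01 over all probe sets. LP is shared by these comparisons, and so are its arrays. The counts of the FoxO list rested on few arrays. In LP against NP/Sed the count of 4 higher became 1 without array 3 of NP/Sed, 2 without array 1 or array 3 of LP and 6 with array 1 of NP/Sed left out. In LP against MP the 8 became 0 without array 3 of MP, 1 without array 3 of LP, 3 without array 2 of MP and 4 without array 1 of LP. In 0PP against LP the 6 lower became 0 without array 3 of LP or array 2 of 0PP and 2 without array 1 of 0PP. In fits of the 2 groups alone the counts were 1 in LP against NP/Sed, 0 in LP against MP and 1 in 0PP against LP. Calls also ended with the beta-actin 3' minus 5' value in the model, which cannot be fully separated from group. In LP against MP those of Bcl2l11, Bnip3, Fbxo32, Gabarapl1, Gadd45a, Pdk4 and Txnip were lost and that of Cat held. In 0PP against LP Cited2, Pdk4 and Txnip were lost, while Bcl2l11, Ccng2 and Fbxo32 held. The calls in LP against NP/Sed held, and in LP against 7EX the 8 higher became 1.

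In LP against NP/Sed the 4 genes with the smallest p were Deptor, Bnip3, Cat and Cited2. Bnip3, a mitophagy receptor, was higher by 0.66 ± 0.11 (adjusted p = 0.00393) and was also higher in 0PP against NP/Sed, by 0.71 ± 0.11 (adjusted p = 0.00513). Cited2, a transcriptional coregulator, was higher in LP by 0.47 ± 0.11 (adjusted p = 0.0298). Cat, catalase, was higher by 0.42 ± 0.09 at 1416430_at (adjusted p = 0.0152) and by 0.23 at its brightest probe set. Deptor, an inhibitor that binds mTOR, was higher by 0.46 ± 0.08 at 1428622_at (adjusted p = 0.00343), but its brightest probe set gave 0.01. In 0PP against LP the smallest p-values belonged to Bcl2l11, Ccng2, Deptor and Fbxo32. Bcl2l11, the pro-apoptotic protein Bim, was lower at -0.60 ± 0.11 (1435449_at, adjusted p = 0.0151), and Ccng2, an unconventional cyclin, at -0.50 ± 0.10 (adjusted p = 0.0158). Fbxo32, the ubiquitin ligase atrogin-1, was lower at -0.60 ± 0.12 at 1417522_at (adjusted p = 0.0213), beside -0.11 at its brightest probe set, and Deptor at -0.39 ± 0.08 (adjusted p = 0.0175), beside -0.32. Bnip3 and Deptor in LP against NP/Sed passed without any 1 array. Cat ended without array 3 of NP/Sed or of LP, and Cited2 without array 2 or 3 of NP/Sed or any of LP. In 0PP against LP all 4 ended without array 3 of LP or array 2 of 0PP, Ccng2, Deptor and Fbxo32 also without array 1 of 0PP, and Deptor without array 1 of LP.

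In mid-pregnancy the genes around the members moved in both directions. Igf1, a growth factor that signals through the same adaptors, was higher in MP than in NP/Sed by 0.62 ± 0.13 at 1437401_at (adjusted p = 0.0254) and lower in LP than in MP at -0.63 ± 0.11 at its brightest probe set (adjusted p = 0.00540). Sgk1, a kinase downstream of the Rictor complex, was higher in MP than in NP/Sed by 0.84 ± 0.18 (adjusted p = 0.0314) and than in 21EX by 0.88 ± 0.18 (adjusted p = 0.0323). Grb14, an adaptor that inhibits the insulin receptor, was lower in MP than in NP/Sed at -0.70 ± 0.14 at 1457526_at (adjusted p = 0.0219), beside -0.17 at its brightest probe set. Bcl2l11 was lower at -0.49 ± 0.11 (1435449_at, adjusted p = 0.0386). In MP against 21EX, Gadd45a, a stress-response gene, was lower at -0.73 ± 0.11 (adjusted p = 0.00310). Gadd45a and the Igf1 difference of LP against MP passed without any 1 array. Against NP/Sed, Igf1 and Grb14 ended without array 1 or 2 of NP/Sed or array 2 or 3 of MP, Sgk1 without array 2 or 3 of NP/Sed or array 1 or 3 of MP, and Bcl2l11 without array 1 or 2 of NP/Sed, array 2 or 3 of MP, array 2 of 7EX or array 3 of 21EX. Sgk1 against 21EX ended without array 1 or 3 of either group. With the beta-actin 3' minus 5' value in the model none of these MP calls against NP/Sed or 21EX passed.

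Running gave calls near the share of all genes. Of the 83 other genes 0 were higher and 1 lower in 7EX, beside 1.26% of all genes called. In 21EX 1 was higher and 3 lower, beside 5.16%. Cdkn1b, the cell cycle inhibitor p27, was lower in 7EX at -0.99 ± 0.21 (1419497_at, adjusted p = 0.0404) and in 21EX at -0.99 ± 0.21 (adjusted p = 0.0232), but its brightest probe set gave -0.11 and 0.04. The same probe set was lower in MP at -0.91 ± 0.21 (adjusted p = 0.0452) and in 0PP at -0.91 ± 0.21 (adjusted p = 0.0371). The 21EX call ended without array 1 or 3 of NP/Sed or array 2 or 3 of 21EX, and the 0PP call without any array of either group. The 7EX call ended without any array of either group, array 3 of 21EX or of MP, or array 2 or 3 of 0PP. The MP call ended without any array of NP/Sed or 0PP, array 2 or 3 of MP, array 2 of 7EX or of LP, or array 3 of 21EX. In 21EX Fbxo32 was lower at -0.85 ± 0.20 at 1448747_at (adjusted p = 0.0337), beside 0.05 at its brightest probe set, and Igf1r, the IGF1 receptor, at -0.36 ± 0.09 at 1452108_at (adjusted p = 0.0430), beside -0.04. Rragc, a GTPase that brings mTOR to the lysosome, was higher in 21EX by 0.30 ± 0.07 (adjusted p = 0.0399). Set against 21EX, LP was higher in Txnip, which binds thioredoxin and restrains glucose uptake, by 1.37 ± 0.20 (adjusted p = 7.97e-04), in Pdk4, which inhibits pyruvate dehydrogenase, by 1.54 ± 0.30 (adjusted p = 0.00641), and in Trib1, a pseudokinase, by 0.66 ± 0.11 (adjusted p = 0.00230). It was also higher in Eif4ebp1, the mTOR substrate that holds back translation, by 0.42 ± 0.09 (adjusted p = 0.0105). Txnip, Pdk4 and Trib1 passed without any 1 array, and Eif4ebp1 ended without array 2 of 21EX or array 3 of LP. In 21EX against NP/Sed, Fbxo32 ended without any array of NP/Sed or array 2 or 3 of 21EX. Rragc ended without any array of either group, array 2 or 3 of 7EX or array 3 of MP, and Igf1r without array 1 or 2 of NP/Sed, any of 21EX, array 3 of MP, array 1 of LP or array 2 of 0PP.

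**Figure D5:**
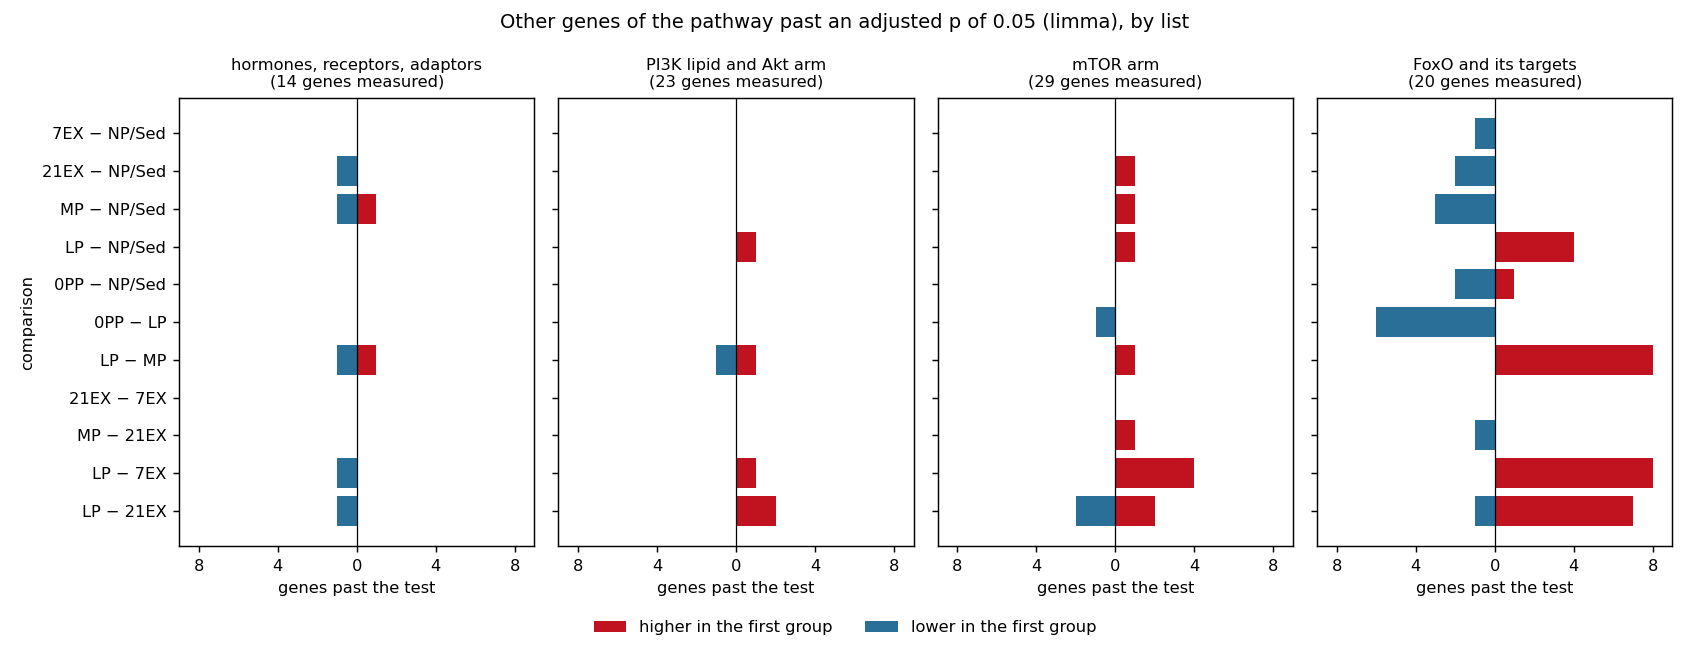
Number of genes (horizontal axis) higher (right, red) or lower (left, blue) at an adjusted limma p under 0.05 in each of 11 comparisons (vertical axis, first group minus second), for 4 lists of genes of the route other than the members, of 14, 23, 29 and 20 measured genes. In the FoxO panel LP against MP and LP against 7EX each have 8 genes higher and 0 lower, and 0PP against LP has 6 lower; some genes stand on 2 lists.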

How the data were processed

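RNA of 2 to 3 left ventricles was pooled per array, and 18 arrays in 6 groups of 3 were read. The deposited values are log2 signals, made by the authors with RMA (background correction, quantile normalization, one value per probe set) over all arrays together. This evens out array-wide shifts. Of 45101 probe sets, 64 controls were left out and 45037 tested without a filter on low values. Groups are those of the labels, and all columns were mapped to a sample. Linear models over the 6 groups were fitted with limma 3.58.1 in R 4.3.3 (lmFit, eBayes; 12 residual and 6.45 prior degrees of freedom, two-sided), with Benjamini-Hochberg adjustment over all probe sets within a comparison. ± is a standard error unless named an SD. Array data give no read depth, and the 3 arrays a group limit the precision. Nothing in the labels says how the pools were formed from litters or cohorts, so p-values measure the spread between pools.

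Every member is named, at its brightest probe set and at each probe set that passed. Of other genes up to 4 per comparison with the smallest p are named, and Cdkn1b in MP against NP/Sed besides. The members and gene lists were chosen with earlier results of these data known. LP against 7EX and 21EX were added after the values were seen. Alternatives were a size limit of a 75% change, Cyber-T written anew with a window of 101 probe sets and a prior weight of 10, fits of 2 groups alone, an intensity trend, median centring, quantile normalization run again, a minimum mean log2 of 5, a replicate block, the 3' minus 5' beta-actin signal as a covariate, the mean of a gene's probe sets and each array left out. The script was tested on simulated data. Gene names are those of the platform annotation given with the series, which lists 1 gene for 34945 probe sets, several for 932 and none for 9160.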

Additional observations from a re-analysis of the deposited data

Results flagged for a closer look

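Differences between growth states, tested directly, passed for 3 members. In LP against 7EX, Foxo3 differed by 0.804 at 1434831_a_at and 0.8077 at 1434832_at, and Pik3r1 by 0.8688 at 1438682_at, 0.8833 at 1425514_at and 0.8272 at 1451737_at. In LP against 21EX, Foxo3 differed by 0.5216 at 1434831_a_at and 0.6485 at 1434832_at, and Pik3r1 by 0.9017 at 1438682_at, 1.034 at 1425515_at, 1.1474 at 1425514_at and 0.795 at 1451737_at. In each of these the 3 LP arrays lay above the 3 of the running group. Foxo3 at 1434831_a_at was lower in 0PP than in LP (-0.418), and Irs2 was higher in MP than in 21EX (0.9658), again with no overlap. The fits behind these values are named under the genes, with the arrays whose loss ends a call.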

How the results depend on the processing

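No member probe set with an adjusted p under 0.1 in a comparison reversed direction under an alternative run on it, and none of 80 calls on the other genes of the route did (all alternatives but the mean of a gene's probe sets, added after the values were seen). With the mean of a gene's probe sets, 16 of 110 member differences, none past the threshold, had another sign than at the brightest probe set, such as Pik3r1 in MP against NP/Sed (-0.02, against 0.26). Counts below are member probe sets, with all probe sets called in parentheses. With all arrays the latter were 297 in 7EX, 1238 in 21EX, 524 in MP, 754 in LP and 892 in 0PP against NP/Sed, 398 in 0PP against LP, 632 in LP against MP, 277 in MP against 21EX, 1347 in LP against 7EX and 1354 in LP against 21EX.

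With the size limit the counts were 0 (172) in 21EX against NP/Sed, 0 (105) in LP against NP/Sed, 0 (60) in 0PP against LP and 3 (207) in LP against 21EX. With Cyber-T and no size limit they were 2 (1263) in 7EX and 1 (1544) in MP against NP/Sed, 3 (629) in 0PP against LP, 5 (1232) in LP against MP, 2 (818) in MP against 21EX and 8 (1798) in LP against 7EX. With only the 2 groups compared they were 0 (162) in LP against NP/Sed, 0 (83) in 0PP against LP and 0 (99) in MP against 21EX. With an intensity trend they were 2 (1751) in 21EX and 1 (762) in MP against NP/Sed and 1 (849) in LP against MP, and with a mean log2 of at least 5 they were 2 (2014), 1 (665) and 1 (951) there. Median centring gave 0 (387) in 0PP against LP. The 3' minus 5' covariate gave 0 (12) in MP against 21EX and 2 (301) in LP against 7EX. With the mean of a gene's probe sets (10 genes) they were 0 (585) in 21EX and 1 (492) in LP against NP/Sed, where Foxo3 passed and Pik3r1 did not, 0 (333) in 0PP against LP, and 2 in LP against 7EX (888) and against 21EX (990). Repeated quantile normalization lost the call of Foxo3 1434832_at in LP against NP/Sed, which left 2 (691). The cause of these changes was not tested.

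Leaving out each array gave 0 in 7EX, 0 to 2 in 21EX, 0 to 1 in MP, 0 (without array 3 of NP/Sed) to 6 (without array 1) in LP and 0 to 2 (without array 1 of NP/Sed) in 0PP, each against NP/Sed. It gave 0 to 1 in 0PP against LP, in LP against MP and in MP against 21EX, 0 in 21EX against 7EX, 3 to 7 in LP against 7EX and 4 to 6 in LP against 21EX. The replicate numbers did not pair the arrays: over 45 same-number pairs the correlation of deviations from group means was -0.27 to 0.18, and 6 of 18 arrays were closest to one of their own number. With a replicate block the count in MP against NP/Sed was 1, and no other count of calls moved by over 1.5 times.
 Of the 80 calls on other genes, 20 passed without any 1 array and 60 ended without at least 1.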
